A study of Mus musculus with 16 samples.

Results

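Serotonin receptor transcripts were examined as a family of 10 genes (Htr1a, Htr1b, Htr1d, Htr1f, Htr2a, Htr2c, Htr3a, Htr4, Htr5a and Htr7), picked by gene symbol out of the 14 mouse serotonin receptor genes among the 41388 genes counted in each library. The 10 were selected on their read counts across the 4 groups described next, with earlier results of the same libraries known. The counts, fold changes and adjusted p-values below therefore describe these genes, make no allowance for that choice, and support no statement about the family as such. All 10 passed the filter on low counts, as did 3 of the other 4 receptor genes.

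Serotonin reaches the cortex through axons of the raphe nuclei in the brainstem and acts there on a large receptor family. The Htr1 and Htr5 receptors couple to Gi/o proteins, which lower cyclic AMP and open inwardly rectifying potassium channels, Htr2 receptors couple to Gq/11 and phospholipase C, and Htr4, Htr6 and Htr7 couple to Gs, which raises cyclic AMP. Htr3 receptors differ from all of these in being cation channels that serotonin opens directly.

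The neurons came from the cortex of Swiss Webster mouse embryos on embryonic day 16 and were grown as primary cultures. On day 5 in vitro every culture received a pair of lentiviruses, one for exon 1 of huntingtin (Htt) and one for a short hairpin RNA (shRNA). Total RNA, depleted of ribosomal RNA, was taken on day 10. In the first group (25Q control) exon 1 encoded a tract of 25 glutamines and the shRNA was directed against luciferase. The second group (72Q control) had the luciferase shRNA and the 72-glutamine exon 1, a tract in the range that causes Huntington disease. The remaining groups had the same 72-glutamine exon 1 with Twist1 shRNA 1 or Twist1 shRNA 2, which target the transcription factor gene Twist1. All 4 groups thus overexpressed an exon 1 fragment on top of the cells' own Htt genes. None of the 16 libraries came from a 25Q culture with a Twist1 shRNA, so effects of these shRNAs outside 72Q were not tested. Each group had n = 4 libraries, 1 per experiment, and library values below are in the order exp107, exp108, exp109a, exp109b. The labels do not say whether exp109a and exp109b are parts of 1 experiment, and they are counted here as separate.

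Library totals ran from 15814525 to 19533034 counts. Twist1 stood at 0.271 ± 0.225 CPM (counts scaled to library size by TMM factors; mean ± SD, n = 4) in 25Q control neurons, 4.15 ± 0.762 in 72Q control neurons, 1.57 ± 0.451 with shRNA 1 and 1.64 ± 0.403 with shRNA 2, and the library ranges of 25Q control, 72Q control and the shRNA groups did not meet. Cortical excitatory neuron markers (among them Slc17a7, Neurod2, Tbr1 and Camk2a) were all detected. Their summed level lay between 2010 and 2060 CPM in 25Q control libraries, 880 and 1240 in 72Q control, 1260 and 1570 with shRNA 1 and 1020 and 1180 with shRNA 2. Markers of serotonergic neurons other than Slc18a2 were low in every group. The rate-limiting serotonin synthesis gene Tph2 had group means of 0.457 to 0.819 CPM and the serotonin transporter gene Slc6a4 0.0981 to 0.331 CPM. Fev ran from 0.316 to 2.18 CPM, and Slc18a2 stood higher at 5.18 to 6.16 CPM. The labels give experiments but do not say whether libraries of a group came from separate cultures, and the spread behind the p-values may be technical. In bulk RNA, fewer cells expressing a receptor and less receptor RNA per cell cannot be told apart.

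Per kilobase of gene length and at the deposited RPKM scale, Htr5a was the highest receptor transcript in all 4 groups, with means of 4.49, 4.33, 4.94 and 4.61 RPKM in 25Q control, 72Q control, shRNA 1 and shRNA 2. In 25Q control neurons Htr1a came next at 4.23 RPKM (3.80 to 4.52 over the 4 libraries), within the range of Htr5a (3.69 to 5.63). Htr2a followed at 2.36 RPKM and did not overlap its neighbours in that order. Below it came Htr7 (1.53), Htr1b (1.28), the non-member Htr6 (0.918) and Htr2c (0.856), with ranges that overlapped between neighbours, and Htr2c (0.653 to 1.03) stood apart from Htr1d (0.366 to 0.561). The lowest members were Htr1d at 0.463, Htr3a at 0.393, Htr1f at 0.333 and Htr4 at 0.329 RPKM, and their ranges overlapped from each one to the next. In 72Q control neurons the order was different. Htr5a stood apart from all others, Htr7 (1.38 RPKM) and Htr2a (1.23) followed, Htr1a came after Htr6 (1.08) at 0.836, and each of these overlapped its neighbour.

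**Figure D1:**
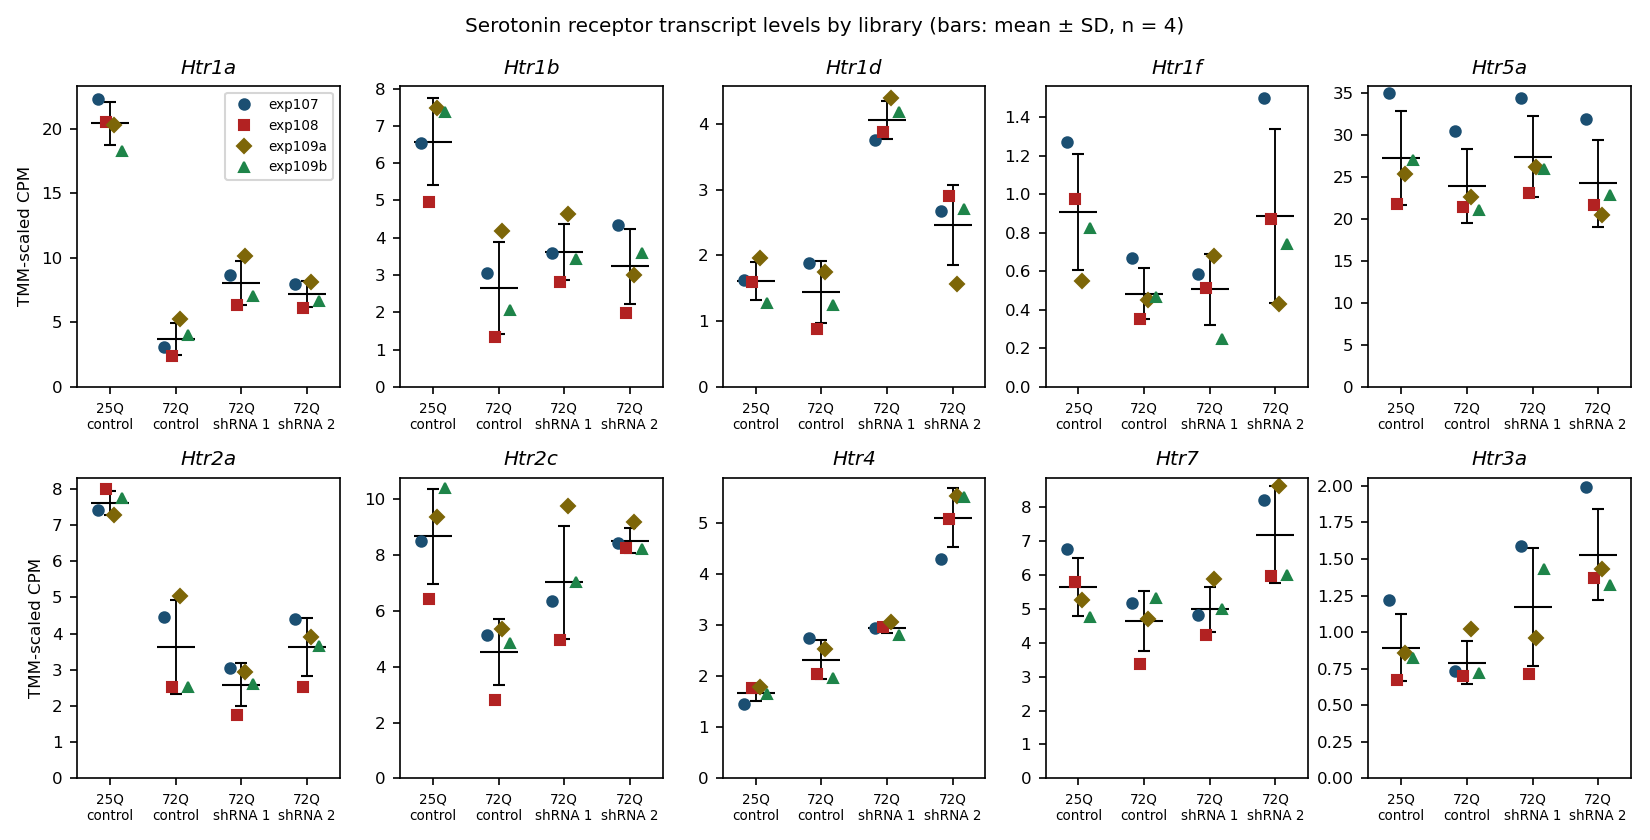
Level of each of the 10 receptor transcripts in every library, in TMM-scaled CPM on axes that start at 0, with colour and shape marking the experiment and bars the mean ± SD of 4 libraries. Htr1a runs from 18.3 to 22.3 CPM in 25Q control and from 2.39 to 5.25 in 72Q control, and the 2 shRNA groups lie between those ranges.

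The receptor gene with the largest difference was Htr1a (ENSMUSG00000021721, GRCm38 chr13:105443693-105448133, plus strand, 1 exon), which encodes the inhibitory receptor that raphe neurons use as an autoreceptor and that many cortical and hippocampal neurons carry on their cell bodies and dendrites. Its 25Q control libraries held 22.3, 20.5, 20.3 and 18.3 CPM and its 72Q control libraries 3.05, 2.39, 5.25 and 4.02. With Twist1 shRNA 1 the values were 8.69, 6.34, 10.1 and 7.04 CPM, and with shRNA 2 they were 8.00, 6.07, 8.09 and 6.68. All 4 libraries with 25 glutamines lay above all 12 others, and all 8 shRNA libraries lay above all 4 of 72Q control. Against 25Q, Htr1a fell by 2.43 ± 0.135 log2 units (SE; adjusted p = 1.86e-15, edgeR quasi-likelihood test with Benjamini-Hochberg adjustment over 15103 genes, as for every adjusted p below), which placed it 13 from the lowest of all fold changes. The fall was seen in each experiment, from -2.86 in exp108 to -1.86 in exp109a. Against the 72Q control Htr1a rose by 1.09 ± 0.145 log2 units under shRNA 1 (adjusted p = 1.97e-07). Under shRNA 2 the rise was 0.94 ± 0.146 (adjusted p = 3.19e-06), and each rise was seen in 4 of 4 experiments. The group means reached 39.5% and 35.4% of the 25Q mean, compared with 18.1% in 72Q control. The shRNAs differed from each other by 0.15 (95% interval -0.10 to 0.41, adjusted p = 0.313).

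Htr1b (ENSMUSG00000049511, chr9:81628291-81633828, minus strand) encodes the related inhibitory receptor of axon terminals, where it restrains release of serotonin and of other transmitters. It was measured at 6.54, 4.95, 7.48 and 7.36 CPM in 25Q control and at 3.05, 1.34, 4.18 and 2.06 CPM in 72Q control, ranges that do not meet. Htr1b fell by 1.29 ± 0.172 log2 units (adjusted p = 9.4e-08), with the same sign in all 4 experiments. The shRNA 1 libraries held 3.58, 2.81, 4.63 and 3.43 CPM and the shRNA 2 libraries 4.35, 1.97, 3.00 and 3.60, in both cases overlapping the 72Q control. With shRNA 1 it rose by 0.45 ± 0.185 (adjusted p = 0.0377). That call ended without the block on experiment (adjusted p = 0.269) and on leaving out either the shRNA 1 library of exp108 or exp109a or any 72Q control library but that of exp109a, at values of 0.317 to 0.485. With shRNA 2 the difference was 0.28 (95% interval -0.10 to 0.66, adjusted p = 0.218), and 0.512 (adjusted p = 0.0317) without the 72Q control library of exp109a. The gene D430036J16Rik on the opposite strand shares 852 exonic bases with Htr1b and had 0 to 12 counts per library. The sources used here do not say whether counting used strand.

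Htr1d (ENSMUSG00000070687, chr4:136423524-136444398, plus strand), another inhibitory receptor and a target of the triptan drugs, behaved differently. The 25Q control libraries held 1.62, 1.59, 1.96 and 1.27 CPM and the 72Q control libraries 1.89, 0.875, 1.75 and 1.24, overlapping ranges with a difference of -0.16 (95% interval -0.67 to 0.35, adjusted p = 0.579). With shRNA 1 the 4 libraries stood at 3.76, 3.88, 4.40 and 4.18 CPM, above every library of the other 3 groups. Htr1d rose by 1.43 ± 0.215 log2 units (adjusted p = 5.33e-07) to 252% of the 25Q mean, and its log2 fold change ranked 40 from the highest of 15103 with shRNA 1. With shRNA 2 the values were 2.68, 2.90, 1.57 and 2.70 CPM, and exp109a, the lowest, fell inside the 72Q control range. The rise was 0.73 ± 0.226 (adjusted p = 0.0058), seen in 3 of 4 experiments, with -0.12 in exp109a. Between the shRNAs the difference was 0.71 ± 0.185 (adjusted p = 0.00133), higher with shRNA 1 in 4 of 4 experiments.

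Because Twist1 is a basic helix-loop-helix factor and such factors bind the E-box, written CANNTG, the promoter windows of the RefSeq table (assembly GRCm38.p6, 250 bases before to 50 after each start) were searched for that motif, which reads the same on both strands. Windows of 8 of the 10 members were used, 9 in all, and those of Htr1d and Htr5a held the motif. Htr1a and Htr1d are shown because they carried the largest fall with 72Q and the largest rise with shRNA 1, each as the 250 bases before the start on the plus strand (chr13:105443443-105443692 and chr4:136423274-136423523), in lower case with CANNTG in capitals.
Htr1a: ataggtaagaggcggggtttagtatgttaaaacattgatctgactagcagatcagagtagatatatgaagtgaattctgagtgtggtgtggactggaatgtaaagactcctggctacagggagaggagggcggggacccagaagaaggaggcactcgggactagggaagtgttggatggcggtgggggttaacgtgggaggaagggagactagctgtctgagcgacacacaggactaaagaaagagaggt
Htr1d: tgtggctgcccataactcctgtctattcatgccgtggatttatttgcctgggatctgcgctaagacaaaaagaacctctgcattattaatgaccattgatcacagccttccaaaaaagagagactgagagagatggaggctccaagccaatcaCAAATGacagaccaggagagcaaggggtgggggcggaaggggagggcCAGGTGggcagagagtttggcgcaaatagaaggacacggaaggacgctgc
The Htr1a window held no CANNTG, and neither did those of Htr1b, Htr1f, Htr2a, Htr2c and Htr7. The Htr1d window held CAAATG and CAGGTG, beginning 97 and 50 bases before the start, a second Htr1d window had 1 match, and that of Htr5a had 1. Among all 32851 windows of this length 72.3% held at least 1 match, with a mean of 1.39. A match is a string of letters and not a binding site, and its absence concerns this window alone.

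Htr1f (ENSMUSG00000050783, chr16:64924729-65105784, minus strand), an inhibitory receptor targeted by a migraine drug class, was the lowest member by counts. Its libraries spanned 0.552 to 1.27 CPM in 25Q control, 0.350 to 0.670 in 72Q control, 0.249 to 0.677 with shRNA 1 and 0.428 to 1.5 with shRNA 2, from 60, 34, 36 and 67 summed counts, and all ranges overlapped. Htr1f fell by 0.76 ± 0.341 log2 units in 72Q (adjusted p = 0.024) and rose by 0.72 ± 0.335 with shRNA 2 (adjusted p = 0.0397), and was 0.062 from its control with shRNA 1 (adjusted p = 0.89). Neither call is firm at this depth. The first ended with DESeq2 (adjusted p = 0.0602), without the experiment block (0.0687) and on leaving out exp108 or exp109b from 25Q or exp107 or exp108 from the 72Q control. The second ended with DESeq2 (0.106), without the block (0.118) and on leaving out exp107, exp108 or exp109b from either group.

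Htr5a (ENSMUSG00000039106, chr5:27841947-27855086, plus strand), a Gi/o-coupled receptor found mainly in brain, was the member with the most counts. It was measured at 35.0, 21.7, 25.3 and 27.0 CPM in 25Q control, 30.5, 21.4, 22.6 and 21.1 in 72Q control, 34.4, 23.1, 26.2 and 25.9 with shRNA 1 and 31.9, 21.6, 20.4 and 22.8 with shRNA 2. The exp107 library was the highest of its group in every group, and all 4 groups overlapped. Within experiments Htr5a fell by 0.19 ± 0.0656 log2 units in 72Q (adjusted p = 0.0162), but the value was -0.123 (adjusted p = 0.103) with upper-quartile factors, -0.051 (adjusted p = 0.508) with library totals alone and not called without the block (adjusted p = 0.388) or without the exp109b library of either group (-0.153 and -0.147). With shRNA 1 it rose by 0.20 ± 0.0651 (adjusted p = 0.0132), a call that ended without the block (adjusted p = 0.417), without the shRNA 1 library of exp109a (0.175) and without the 72Q control library of exp109b (0.158). With shRNA 2 the difference was 0.012 (95% interval -0.12 to 0.15, adjusted p = 0.903).

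Both Gq/11-coupled members were lower in 72Q neurons, and they parted with the shRNAs. Htr2a (ENSMUSG00000034997, chr14:74640840-74706859, plus strand) encodes the receptor of cortical pyramidal neurons through which psychedelic drugs act. Its 25Q control libraries held 7.41, 8.00, 7.29 and 7.74 CPM, a narrow range, and its 72Q control libraries 4.45, 2.51, 5.03 and 2.53. Htr2a fell by 1.07 ± 0.159 log2 units (adjusted p = 8.02e-07), in 4 of 4 experiments and with no overlap. With shRNA 1 it was lower again at 3.05, 1.74, 2.94 and 2.62 CPM, or 34.0% of the 25Q mean, and it fell by 0.47 ± 0.188 against the 72Q control (adjusted p = 0.0351) although the ranges overlapped. That call ended without the block (adjusted p = 0.129), on leaving out exp107 or exp109a from the 72Q control (-0.397 and -0.288) and without the shRNA 1 library of exp107, exp108 or exp109a (-0.497, -0.381 and -0.474). With shRNA 2 the libraries held 4.40, 2.51, 3.90 and 3.66 CPM, 0.009 log2 units from the 72Q control (95% interval -0.35 to 0.36, adjusted p = 0.972).

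Htr2c (ENSMUSG00000041380, chrX:146962513-147197277, plus strand) encodes a receptor whose RNA is edited in neurons and which is abundant in choroid plexus as well as in brain. The 25Q control libraries stood at 8.51, 6.41, 9.38 and 10.4 CPM and the 72Q control libraries at 5.12, 2.80, 5.36 and 4.85, without overlap. It fell by 0.92 ± 0.135 log2 units (adjusted p = 5.71e-07). With shRNA 1 the values were 6.34, 4.96, 9.77 and 7.04 CPM, higher than the 72Q control in each experiment but overlapping it through exp108, and Htr2c rose by 0.62 ± 0.137 (adjusted p = 0.000326). With shRNA 2 they were 8.43, 8.25, 9.18 and 8.21 CPM, all above the 72Q control and within the 25Q range. The rise was 0.91 ± 0.133 (adjusted p = 1.21e-06) and the group mean was 98.2% of that in 25Q control. Of 8 choroid plexus markers 4 were tested, and 3 of these rose with shRNA 2 (20.2% of all tested genes rose). All 8 summed with shRNA 2 to 6.01 to 10.3 CPM against 3.38 to 5.99 in 72Q control and 1.65 to 2.88 in 25Q control. Their defining gene Ttr had group means of 0.0357 to 0.127 CPM, the lowest being with shRNA 2. Prlr had means of 0.35, 2.35, 2.14 and 4.87 CPM in 25Q control, 72Q control, shRNA 1 and shRNA 2. Against the 72Q control, the means of Ttr, Otx2 and Folr1 were lower with shRNA 2. Those of Prlr, Clic6, Kl, Kcne2 and Kcnj13 were higher. The part of choroid plexus RNA in the Htr2c values was not tested.

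Neither of the Gs-coupled members, Htr4 and Htr7, was called lower in 72Q neurons. Htr4 (ENSMUSG00000026322, chr18:62324204-62467802, plus strand), which promotes transmitter release and neuronal excitability, had 25, 29, 29 and 26 counts in 25Q control, equal to 1.66 ± 0.154 CPM with a highest value of 1.78. In 72Q control it stood at 2.74, 2.04, 2.54 and 1.96 CPM. These ranges were apart, and Htr4 rose by 0.45 ± 0.183 log2 units (adjusted p = 0.0259). The call ended with DESeq2 (adjusted p = 0.0637), with only the compared groups in the fit (0.0507), and on leaving out exp107 or exp109a from either group (0.317 to 0.445). The shRNA 1 libraries held 2.94, 2.96, 3.05 and 2.80 CPM, all above the 72Q control by a small margin. The difference was 0.33 ± 0.16 (adjusted p = 0.0752), and 0.467 (adjusted p = 0.0233) without the 72Q control library of exp107. The shRNA 2 libraries were the highest, at 4.29, 5.08, 5.52 and 5.51 CPM. Htr4 rose by 1.11 ± 0.147 with shRNA 2 (adjusted p = 1.56e-07) to 307% of the 25Q mean, and the shRNAs differed by -0.77 ± 0.139 (shRNA 1 minus shRNA 2, adjusted p = 1.55e-05), in 4 of 4 experiments.

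Htr7 (ENSMUSG00000024798, chr19:35958734-36057507, minus strand), a receptor studied for its part in circadian timing and mood, had 6.77, 5.80, 5.27 and 4.76 CPM in 25Q control and 5.18, 3.38, 4.69 and 5.31 in 72Q control. The ranges overlapped and the difference was -0.28 (95% interval -0.56 to 0.006, adjusted p = 0.0811). It was called lower without the 72Q control library of exp109b (-0.41, adjusted p = 0.0179) or the 25Q library of exp109a (-0.376, adjusted p = 0.0301). With shRNA 1 the libraries held 4.82, 4.24, 5.87 and 4.99 CPM, 0.095 from the 72Q control (95% interval -0.19 to 0.38, adjusted p = 0.606). With shRNA 2 they held 8.21, 5.96, 8.61 and 5.99 CPM, all above the 72Q control. Htr7 rose by 0.61 ± 0.131 (adjusted p = 0.000248) and was lower with shRNA 1 than with shRNA 2 by 0.52 ± 0.13 (log2 fold change -0.52, adjusted p = 0.000968).

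Htr3a (ENSMUSG00000032269, chr9:48899214-48911099, minus strand) encodes the subunit that every serotonin-gated channel needs and marks a lineage of cortical interneurons from the caudal ganglionic eminence. It was low, at 1.22, 0.672, 0.858 and 0.825 CPM in 25Q control and 0.731, 0.700, 1.02 and 0.722 in 72Q control, with a difference of -0.14 (95% interval -0.72 to 0.43, adjusted p = 0.646). The shRNA 1 libraries held 1.59, 0.715, 0.960 and 1.43 CPM, an overlapping range (0.48 ± 0.265, adjusted p = 0.0949), which was called at 0.645 (adjusted p = 0.046) without the 72Q control library of exp109a. With shRNA 2 the values were 1.99, 1.37, 1.43 and 1.32 CPM, above every 72Q control library, and Htr3a rose by 0.85 ± 0.25 (adjusted p = 0.00269). Of 11 further markers of that interneuron lineage (among them Vip, Reln and Prox1), 8 fell and 0 rose in 72Q against 25Q, 3 rose and 1 fell with shRNA 1, and 2 rose and 1 fell with shRNA 2. Of all tested genes 29.3% rose and 27.8% fell in 72Q, 22.7% and 23.6% with shRNA 1, and 20.2% and 21.5% with shRNA 2. The interneuron markers summed to 613 to 730 CPM in 25Q control, 316 to 460 in 72Q control, 394 to 526 with shRNA 1 and 385 to 495 with shRNA 2. Most of each control sum came from Cnr1 (means of 314 and 171 CPM in 25Q and 72Q control), Reln (160 and 102) and Cck (128 and 50.7). The means of Prox1 (11.6 and 12.5 CPM), Nr2f2 (14.5 and 16.0) and Sp8 (3.87 and 4.33) were not lower in 72Q control. The part of these interneurons in the Htr3a values was not tested.

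**Figure D2:**
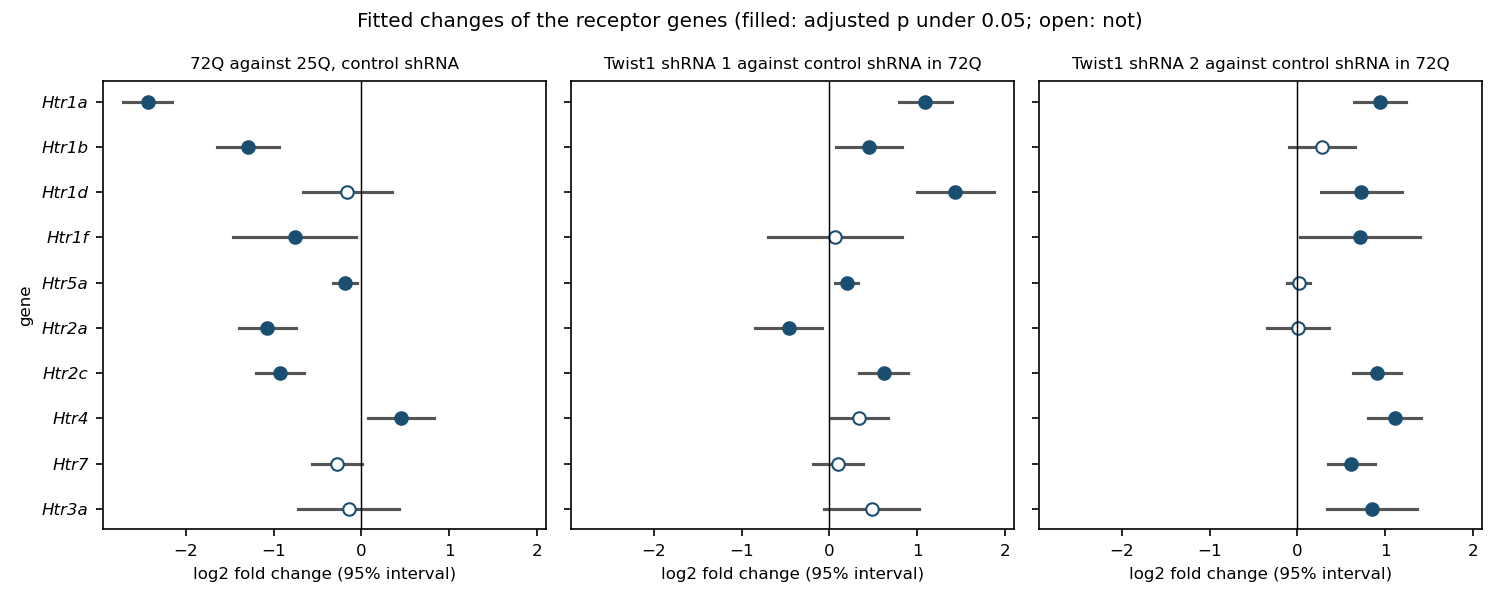
Fitted log2 fold changes of the 10 receptor genes in the 3 comparisons that share the 72Q control libraries, with 95% intervals, filled points marking an adjusted p under 0.05. Htr1a lies at -2.43 in the first panel and at 1.09 and 0.94 in the others, whereas Htr2a is below 0 with shRNA 1 and at 0.009 with shRNA 2.

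Counted together, 6 of the 10 members fell in 72Q against 25Q (Htr1a, Htr1b, Htr1f, Htr2a, Htr2c and Htr5a) and 1 rose (Htr4), while 29.3% of all tested genes rose and 27.8% fell. The median log2 fold change was -0.518 over the members and 0.03 over all genes. Over the 13 tested genes of the whole receptor family it was -0.186. With shRNA 1 against the control in 72Q, 5 members rose (Htr1a, Htr1b, Htr1d, Htr2c and Htr5a) and 1 fell (Htr2a), beside 22.7% and 23.6% of all genes. The medians were 0.393 over the members, 0.334 over the whole family and -0.005 over all genes. With shRNA 2, 7 members rose (Htr1a, Htr1d, Htr1f, Htr2c, Htr3a, Htr4 and Htr7) and 0 fell, beside 20.2% and 21.5% of all genes. The medians, in the same order, were 0.722, 0.614 and 0.002. These 3 comparisons share the 72Q control libraries, so a high or low control value moves all of them. Between the shRNAs, 2 members were higher with shRNA 1 (Htr1d and Htr5a) and 5 lower (Htr1f, Htr2a, Htr2c, Htr4 and Htr7), beside 53.2% of all genes called in either direction. Of the last 7, Htr1d, Htr4 and Htr7 were called in all 23 alternative settings or samples tried, Htr5a in 19, Htr2a in 18, Htr2c in 15 (-0.29 ± 0.122, adjusted p = 0.0442) and Htr1f in 6 (-0.65 ± 0.33, adjusted p = 0.0482). Because the genes had been selected on the same counts, nothing about the family as such is read from these numbers.

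The other 4 receptor genes were described alongside. Htr6, a Gs-coupled receptor, was at 2.34 ± 0.59 CPM in 25Q control and 2.51 ± 0.543 in 72Q control (0.097, adjusted p = 0.647). It fell with shRNA 1 to 1.5 ± 0.471 CPM (-0.69 ± 0.193, adjusted p = 0.00206) and rose with shRNA 2 to 3.55 ± 0.527 CPM (0.49 ± 0.161, adjusted p = 0.0109). Both library ranges overlapped that of the 72Q control. The shRNAs differed from each other by -1.18 ± 0.182 log2 units (adjusted p = 7.31e-07) without overlap. Htr5b was 0.64 log2 units higher in 72Q than in 25Q control but was not called (adjusted p = 0.113). With shRNA 1 it rose from 0.794 ± 0.228 to 1.55 ± 0.438 CPM (0.86 ± 0.317, adjusted p = 0.013). It was not called with shRNA 2 (0.079, adjusted p = 0.867). Htr2b, at group means of 0.403 to 0.695 CPM, was not called in any comparison. In 72Q against 25Q its difference was 0.38 (adjusted p = 0.263). Htr2b shares 252 exonic bases with Psmd1 on the opposite strand, which had 2242 to 3795 counts per library. Htr3b had 2 counts in 1 library and 0 in the other 15, and was not tested. The calls of these 4 genes were not checked in the alternative settings, which covered the members alone.

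The make-up of the receptor transcripts within a library does not depend on how libraries are scaled. Of the summed RPKM of the 10 members, Htr1a supplied 25.2, 28.5, 26.4 and 24.0% in the 25Q control libraries and 5.64, 6.74, 10.3 and 9.63% in the 72Q control libraries. With shRNA 1 its share was 13.6 ± 1.46% and with shRNA 2 it was 11.8 ± 1.18% (SD, n = 4), above the 72Q control range and below the 25Q range in every library. Htr5a, by contrast, went from 27.5 ± 3.15% in 25Q control to 42.1 ± 5.62% in 72Q control. All Gi/o-coupled members together held 66.2 ± 1.75, 61.6 ± 1.91, 67.7 ± 2.08 and 55.9 ± 3.98% in 25Q control, 72Q control, shRNA 1 and shRNA 2. The Gq/11 pair held 19.9 ± 2.04, 16.3 ± 2.50, 12.1 ± 1.64 and 15.4 ± 1.34%. The Gs pair held 11.4 ± 1.12% in 25Q control and 18.3 ± 1.95% in 72Q control without overlap, 15.9 ± 1.47% with shRNA 1 and 23.4 ± 3.11% with shRNA 2. These shares leave out the Gs-coupled non-member Htr6, at means of 0.918, 1.08, 0.644 and 1.62 RPKM in the same order of groups. A share also moves with the total, which was 16.3 ± 1.17 RPKM in 25Q control and 10.3 ± 1.70 in 72Q control. Between these groups Htr7 went from 1.53 to 1.38 RPKM, Htr4 from 0.329 to 0.503, Htr5a from 4.49 to 4.33 and Htr3a from 0.393 to 0.384. Htr3a supplied 2.40 ± 0.386, 3.75 ± 0.629, 4.22 ± 1.23 and 5.27 ± 0.401%. Summed over the 10 members, the TMM-scaled level was 81.2 ± 8.13 CPM in 25Q control, 48.1 ± 8.72 in 72Q control, 62.3 ± 8.62 with shRNA 1 and 63.9 ± 8.23 with shRNA 2, the first 2 ranges lying apart at 72.4 to 92.1 and 37.8 to 57.3.

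**Figure D3:**
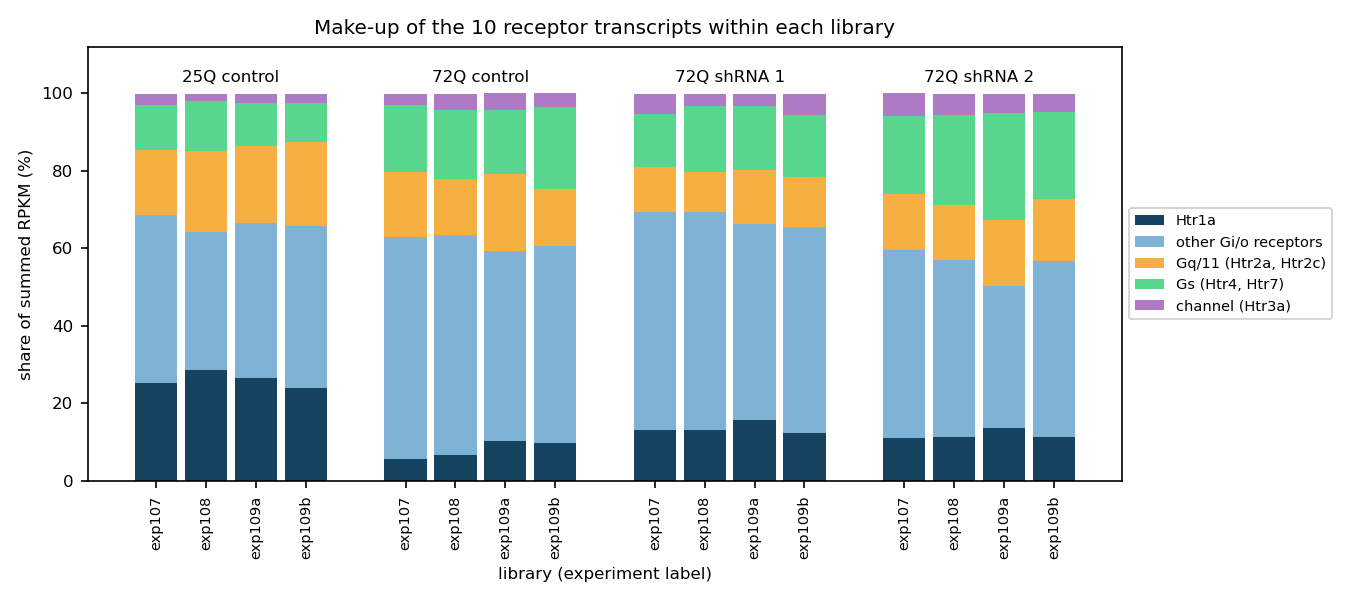
Share of the summed RPKM of the 10 members held by Htr1a, the other Gi/o-coupled receptors, the Gq/11 pair, the Gs pair and the channel subunit, as stacked bars that reach 100% for each of the 16 libraries. The Htr1a block is 24.0 to 28.5% in 25Q control and 5.64 to 10.3% in 72Q control, and the Gs block has its highest mean with shRNA 2, at 20.2 to 27.6%.

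Ratios between receptors of like coupling were taken within each library. Htr1a to Htr5a was 0.963 ± 0.176 in 25Q control, 0.199 ± 0.0793 in 72Q control, 0.372 ± 0.0751 with shRNA 1 and 0.383 ± 0.0797 with shRNA 2. Within each experiment both shRNA libraries lay above their 72Q control and below their 25Q control. Htr1b to Htr1d was 2.84 ± 0.775 in 25Q control and 1.22 ± 0.269 in 72Q control, without overlap. It was 0.601 ± 0.0978 with shRNA 1, below all 72Q control libraries, and 0.938 ± 0.356 with shRNA 2, which overlapped them. Htr2a to Htr2c overlapped between the control groups, at 2.86 ± 0.727 and 2.53 ± 0.60, and had lower means with the shRNAs, at 1.18 ± 0.239 and 1.33 ± 0.283, with shRNA 1 below every control library. Htr4 to Htr7 was 0.22 ± 0.0442 in 25Q control, 0.373 ± 0.073 in 72Q control, 0.436 ± 0.0561 with shRNA 1 and 0.536 ± 0.135 with shRNA 2, and the 25Q range of 0.156 to 0.253 met none of the others. No test was made of shares or ratios.

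**Figure D4:**
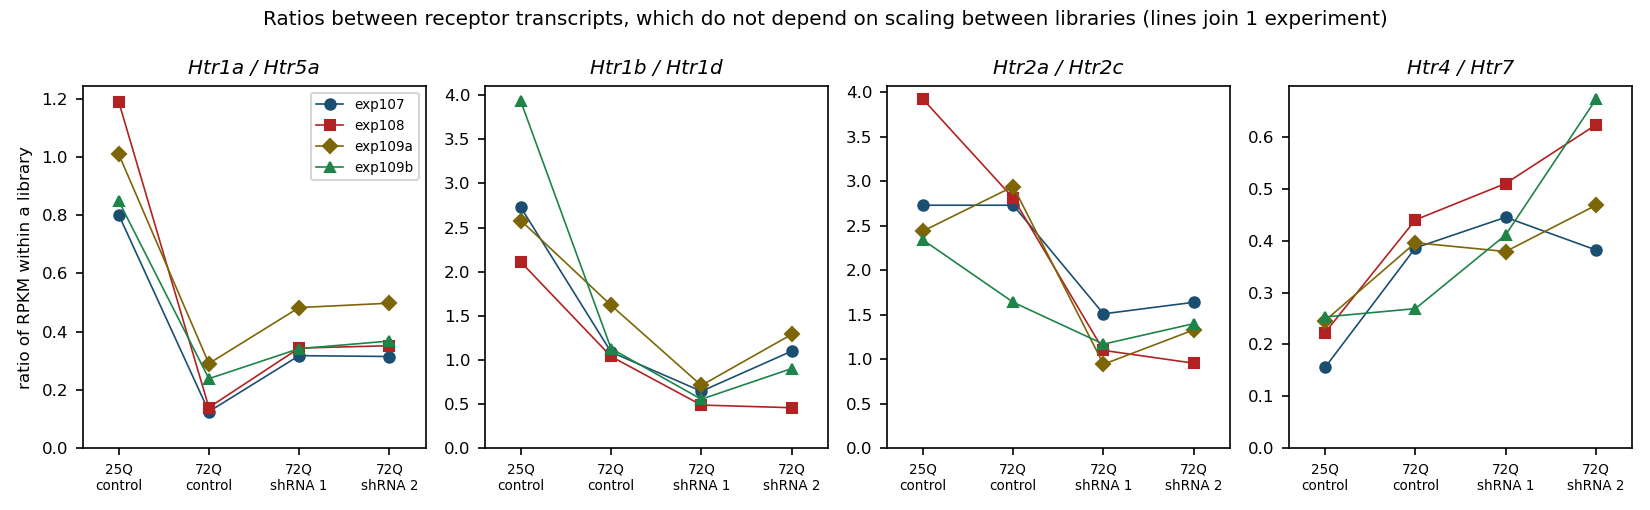
Ratio of the RPKM of a pair of receptor genes in each library, on axes from 0, with lines joining the 4 libraries of an experiment. Htr1a to Htr5a is 0.802 to 1.19 in 25Q control and 0.126 to 0.291 in 72Q control, and Htr4 to Htr7 is lowest in 25Q control in all 4 experiments.

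Marker genes of cortical cell types also changed between the groups, in a background where 29.3% of all tested genes rose and 27.8% fell in 72Q against 25Q, 22.7% and 23.6% with shRNA 1, and 20.2% and 21.5% with shRNA 2. Of 8 cortical excitatory neuron markers 1 rose and 7 fell in 72Q against 25Q, while 3 rose and 1 fell with shRNA 1, and 1 rose and 1 fell with shRNA 2. The vesicular glutamate transporter gene Slc17a7 had means of 536, 262, 470 and 270 CPM in the 4 groups. Of 10 inhibitory neuron markers 1 rose and 7 fell in 72Q, 3 rose and 4 fell with shRNA 1, and 3 rose and 2 fell with shRNA 2. Their summed level ran from 357 to 474 CPM in 25Q control, 231 to 367 in 72Q control, 236 to 365 with shRNA 1 and 279 to 398 with shRNA 2. Of 8 pan-neuronal markers 1 rose and 6 fell in 72Q, 3 rose and 0 fell with shRNA 1, and 2 rose and 4 fell with shRNA 2. Of 8 astrocyte markers 5 rose and 0 fell in 72Q, 1 rose and 0 fell with shRNA 1, and 0 rose and 4 fell with shRNA 2, at sums of 1590 to 2000, 1740 to 2210, 1850 to 2170 and 1400 to 1970 CPM in the 4 groups. Of 8 oligodendrocyte lineage markers 2 rose and 2 fell in 72Q, 5 fell with shRNA 1 and 6 fell with shRNA 2, none rising with either. The oligodendrocyte lineage sums of 1060 to 1190 CPM in 72Q control lay above those of 872 to 973 with shRNA 1 and 750 to 868 with shRNA 2. Of 6 tested serotonergic neuron markers 3 rose and 0 fell in 72Q, 0 rose and 3 fell with shRNA 1, and 1 rose and 0 fell with shRNA 2, the sums being 7.27 to 8.19, 8.87 to 10.1, 8.24 to 9.45 and 9.29 to 13.3 CPM. Slc18a2 alone had group means of 5.18 to 6.16 CPM and was not called in 72Q (adjusted p = 0.416). The means of Fev, Ddc, Gata3, Tph2 and Lmx1b were higher in 72Q control, at 1.05 CPM or less. That of Slc6a4 was lower, at 0.331 CPM in 25Q and 0.102 in 72Q control. Microglial markers were low, with 2 of 8 genes tested and 1 called, higher with shRNA 2, where they summed to 12.8 to 13.2 CPM against 8.53 to 9.68 in 72Q control. Most of these sums was Aif1 alone, at means of 8.16 CPM in 72Q control and 11.6 with shRNA 2. No other microglial marker had a group mean above 0.634 CPM. Of 6 tested endothelial, mural and meningeal markers 0 rose and 3 fell in 72Q, 2 rose and 0 fell with shRNA 1, and 3 rose and 1 fell with shRNA 2. The part of cell make-up in the receptor values was not tested.

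Genes that handle serotonin or carry receptor signals were counted in lists, to be read against the shares of all tested genes, which were 29.3% higher and 27.8% lower in 72Q against 25Q, 22.7% and 23.6% with shRNA 1, and 20.2% and 21.5% with shRNA 2. Among genes for serotonin synthesis, uptake and degradation 6 of 13 tested rose and 2 fell in 72Q against 25Q, 3 rose and 4 fell with shRNA 1, and 2 rose and 1 fell with shRNA 2. The organic cation transporter gene Slc22a3, a low-affinity serotonin carrier, fell from 28.2 ± 4.73 to 9.30 ± 2.28 CPM in 72Q (-1.60 ± 0.144, adjusted p = 5.84e-08), and Pcbd1, a tetrahydrobiopterin recycling gene, rose from 1.17 ± 0.37 to 2.01 ± 0.26 CPM (0.73 ± 0.23, adjusted p = 0.00418). The plasma membrane monoamine transporter gene Slc29a4 was far more abundant, at 392 ± 33.4 CPM in 25Q control and 234 ± 24.8 in 72Q control. It fell further with both shRNAs, by 1.14 ± 0.0526 to 106 ± 6.66 CPM with shRNA 1 and by 0.37 ± 0.0514 to 181 ± 25.5 CPM with shRNA 2. Pts, which acts in tetrahydrobiopterin synthesis, rose with both (0.54 ± 0.0886 and 0.47 ± 0.0882).

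In the Gi/o arm 2 of 15 tested genes rose and 10 fell in 72Q against 25Q (beside 29.3% and 27.8% of all tested genes), with a median of -0.295 where that of all genes was 0.03. With shRNA 1, 7 rose and 6 fell (22.7% and 23.6% of all genes), and with shRNA 2, 2 rose and 7 fell (20.2% and 21.5%). Rgs4, which shortens Gi/o and Gq signals, fell from 279 ± 13.4 to 46.1 ± 15.6 CPM (-2.65 ± 0.205, adjusted p = 1.95e-06), and Rgs17, a Gi/o regulator of the same family, rose from 87.4 ± 9.02 to 111 ± 8.90 CPM (0.35 ± 0.0498, adjusted p = 6.38e-07). Rgs17 rose again with shRNA 1 (0.78 ± 0.0482) and shRNA 2 (0.55 ± 0.0483). Adcy1, a calcium-stimulated adenylyl cyclase gene, fell with shRNA 1 from 1060 ± 303 to 535 ± 98.0 CPM (-0.96 ± 0.0794), and Gnai2, a Gi alpha subunit gene, fell with shRNA 2 from 369 ± 11.4 to 251 ± 23.3 CPM (-0.56 ± 0.0446).

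In the Gq/11 arm 3 of 10 tested genes rose and 6 fell in 72Q (29.3% and 27.8% of all genes), 3 rose and 3 fell with shRNA 1 (22.7% and 23.6%), and 4 rose and 5 fell with shRNA 2 (20.2% and 21.5%). Plcb4, a phospholipase C gene, rose from 19.8 ± 1.66 to 38.8 ± 2.33 CPM (0.97 ± 0.0717, adjusted p = 1.37e-12) and Rgs2, a brake on Gq, fell from 56.1 ± 2.56 to 22.9 ± 5.71 CPM (-1.30 ± 0.111, adjusted p = 8.77e-08). Rgs2 rose with shRNA 1 to 47.2 ± 3.76 CPM (1.05 ± 0.112), where the protein kinase C gene Prkca fell (-0.33 ± 0.0544). With shRNA 2 Plcb1 rose (0.54 ± 0.0517) and the Gq-family subunit gene Gna11 fell from 200 ± 3.94 to 124 ± 8.88 CPM (-0.69 ± 0.0485). Beside the same background, in the Gs arm 1 of 16 tested genes rose and 10 fell in 72Q, 6 rose and 4 fell with shRNA 1, and 5 rose and 6 fell with shRNA 2. The adenylyl cyclase gene Adcy8 fell in 72Q (-1.15 ± 0.0655, adjusted p = 1.37e-14), and Prkar1a, a regulatory subunit gene of protein kinase A, rose (0.24 ± 0.043). Ppp1r1b, the DARPP-32 gene, rose from 4.11 ± 1.03 CPM in 72Q control to 9.35 ± 1.14 under shRNA 1 (1.17 ± 0.133, adjusted p = 7.46e-09) and to 9.19 ± 1.5 under shRNA 2 (1.15 ± 0.132, adjusted p = 1.46e-08). The phosphodiesterase gene Pde4b fell with shRNA 1 (-0.46 ± 0.0564) and the cyclase gene Adcy9 with shRNA 2 (-0.39 ± 0.0543).

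Of 14 tested receptor partner and desensitisation genes, 3 rose and 9 fell in 72Q (29.3% and 27.8% of all genes), 6 rose and 5 fell with shRNA 1 (22.7% and 23.6%), and 1 rose and 3 fell with shRNA 2 (20.2% and 21.5%). The caveolin gene Cav1 fell from 41.3 ± 3.20 to 7.17 ± 3.07 CPM (-2.55 ± 0.185, adjusted p = 6.1e-08) and rose with shRNA 1 (0.96 ± 0.20, adjusted p = 0.00135), and Ric3, a chaperone of ligand-gated channels including Htr3a, rose in 72Q from 82.9 ± 2.21 to 129 ± 10.0 CPM (0.64 ± 0.0505). Adarb1, an editing enzyme gene, fell with shRNA 1 (-0.79 ± 0.0512), Grk3 rose with shRNA 2 (0.16 ± 0.0485) and Ahnak fell with it (-0.56 ± 0.172). Beside the same background, among 11 genes reported to regulate Htr1a transcription, 5 rose and 4 fell in 72Q, 2 rose and 4 fell with shRNA 1, and 4 rose and 5 fell with shRNA 2. The repressor gene Rest rose in 72Q from 12.4 ± 0.971 to 16.3 ± 2.12 CPM (0.39 ± 0.0788, adjusted p = 0.000101) and Hes1 fell (-0.36 ± 0.131, adjusted p = 0.0163). The mineralocorticoid receptor gene Nr3c2 rose with both shRNAs (0.73 ± 0.0791 and 0.44 ± 0.0799), and the NF-kappaB gene Rela fell with both (-0.45 ± 0.0663 and -0.46 ± 0.0658).

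Receptors for other monoamines made up a further list. Of 13 tested, 1 rose and 10 fell in 72Q against 25Q (beside 29.3% and 27.8% of all tested genes) with a median of -0.66, where that of all genes was 0.03. With shRNA 1, 3 rose and 1 fell (22.7% and 23.6%), and with shRNA 2, 8 rose and 0 fell (20.2% and 21.5%). The histamine receptor gene Hrh3 fell from 25 ± 3.24 to 4.97 ± 1.67 CPM (-2.33 ± 0.123, adjusted p = 1.13e-15), and the adrenergic receptor gene Adra1b rose from 5.53 ± 1.73 to 10.6 ± 3.06 CPM (0.92 ± 0.144, adjusted p = 5.45e-06). The dopamine receptor gene Drd1 rose with shRNA 1 from 2.09 ± 0.889 to 5.04 ± 0.801 CPM (1.24 ± 0.159, adjusted p = 4.72e-08), where the adrenergic receptor gene Adrb3 fell (-1.02 ± 0.244, adjusted p = 0.00031). With shRNA 2 the adrenergic receptor gene Adra1d rose from 1.19 ± 0.479 to 2.74 ± 0.672 CPM (1.13 ± 0.228, adjusted p = 5.16e-05).

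Genes whose pattern over the 16 libraries was closest to a receptor were found by the root mean square difference of log2(CPM + 0.5) after centring each of 13597 genes on its own mean. Close to Htr1a were Ramp3, a receptor activity-modifying protein gene (0.289), and the potassium channel gene Kcnh5 (0.296), against a median of 0.91 over all genes. Ramp3 had group means of 14.3, 3.32, 5.15 and 4.99 CPM in 25Q control, 72Q control, shRNA 1 and shRNA 2. Closest to Htr5a were Ift172 (0.130), Gm11837 (0.134) and Oplah (0.135), with a median of 0.34, and closest to Htr7 were Zfp850 (0.171), Hipk3 (0.180) and Slc26a6 (0.181), with a median of 0.384. Libraries share their groups and experiments in this measure, and the likeness is a description.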

How the data were processed

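RNA sequencing covered 16 libraries, with groups from the sample titles and experiments from the description labels. Reads were aligned with STAR 2.0.4b and counted per gene with featureCounts 1.45 of Subread on GRCm38, per the submitters' processing notes. The sources used here give no strandedness, annotation release or rule for reads with several hits. The authors deposited raw counts for 41388 Ensembl genes, with CPM and RPKM beside them. The deposited CPM equalled the count over the library total to within 2.5e-11, and the deposited RPKM equalled that CPM per kilobase of listed length to within 4.0e-11. Counts entered every test, RPKM the levels per length, shares and ratios. Symbols came from GENCODE M21 for 40254 identifiers (97.26%).

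In edgeR 4.0.16 (R 4.3.3), filterByExpr left 15103 genes, and libraries were scaled by TMM factors of 0.898 to 1.078. The quasi-likelihood test (glmQLFit with robust estimation, glmQLFTest) was fitted once to all libraries on group plus experiment, at a common biological coefficient of variation of 5.24%. P-values were adjusted over all tested genes by the Benjamini-Hochberg method, and a gene was called, and said to have risen or fallen, at an adjusted p under 0.05. Log2 fold changes were computed with 2 as the prior count, and their SE came from the fit without a prior count. CPM in the text is TMM-scaled. Intervals are at the 95% level and rest on the spread between libraries that was left after the block on experiment. The procedure was tested on simulated data.

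Experiment was the block because deviations from the group mean were shared within an experiment, their correlation across genes being 0.271 to 0.665 in 24 pairs. In 72 pairs of other experiments the mean was -0.146. Centring on the group mean ties that value to the same-experiment correlations, so it is no separate evidence. Title numbers name the same experiment across the 72Q groups, and in 25Q they do so for number 2 alone. The chi-square per degree of freedom between replicates was 2.85 to 22.6 (genes with at least 20 counts), so no library was counted as a repeat.

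The receptor genes, the pathway lists and the marker lists were chosen with earlier results of these data known. Named genes were all members, the other receptor genes, Twist1, the highest and lowest called gene of each pathway list in each of the first 3 comparisons at a mean of at least 1 CPM, and the 3 closest in pattern to Htr1a, Htr5a and Htr7, of which 1 is not reported here. Marker genes given with values were named after their values were seen. Promoter sequences came from RefSeq. Alternatives were DESeq2 1.42.0, other scaling factors, no filter, no block, a fit to the compared groups alone and leaving out each library.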

Additional observations from a re-analysis of the deposited data

Results flagged for a closer look

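Within-group outliers were sought in 40 sets of 4 libraries, the 10 receptor genes in each group, by the gap of the highest or lowest library to its neighbour over the range, set against Dixon's critical value at the 95% level. Chance gives about 1 in 20 such sets, and 4 were found. Htr1d in the shRNA 2 library of exp109a was 1.57 CPM, below the other libraries of its group at 2.68 CPM and above. Htr3a in the 72Q control library of exp109a was 1.02 CPM, above the others at 0.731 CPM and below. Htr3a in the shRNA 2 library of exp107 was 1.99 CPM, where the next was 1.43 CPM. Htr5a in the 72Q control library of exp107 was 30.5 CPM, where the next was 22.6 CPM, and exp107 was the highest library for this gene in all 4 groups.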

How the results depend on the processing

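Across 23 alternatives for each comparison, Htr1a, Htr1b, Htr2a and Htr2c kept their call in 72Q against 25Q, Htr1a, Htr1d and Htr2c with shRNA 1, and Htr1a, Htr1d, Htr2c, Htr3a, Htr4 and Htr7 with shRNA 2. The number of receptor genes called, 7, 6, 7 and 7 in 72Q against 25Q, shRNA 1, shRNA 2 and shRNA 1 against shRNA 2, became 5, 3, 6 and 3 without the replicate block on experiment, and 5 to 7, 3 to 6, 6 to 8 and 4 to 7 when 1 library was left out. The lowest of these were reached without the shRNA 1 library of exp109a (3 with shRNA 1), and without the shRNA 2 library of exp107 or the shRNA 1 library of exp108 (4 between the shRNAs). Over all genes the calls were 8628, 6999, 6307 and 8030 with the block and 6526, 4561, 3621 and 5504 without it. Signs turned for differences that were not called, and no called difference changed sign. On leaving out 1 library, Htr1d in 72Q against 25Q ran from -0.302 to 0.018 and Htr3a from -0.306 to 0.028, above 0 without the 72Q control library of exp108 or exp107. Htr1f with shRNA 1 ran from -0.231 to 0.226, Htr2a with shRNA 2 from -0.142 to 0.186, and Htr5a with shRNA 2 from -0.028 to 0.077. These were below 0 for Htr1f without the shRNA 1 library of exp109a (-0.231) or the 72Q control library of exp108 (-0.058), for Htr2a without exp108 or exp109b of the control (-0.062 and -0.142) or exp107 or exp109b of shRNA 2 (-0.048 and -0.023), and for Htr5a without exp109b of the control (-0.028) or exp107 or exp108 of shRNA 2 (-0.011 and -0.015). Htr1b between the shRNAs ran from -0.014 to 0.324, below 0 without the shRNA 2 library of exp109a. The difference in summed receptor level, 72Q minus 25Q, was -33.1 CPM with TMM factors and -26.2 CPM with library totals. Called genes were higher in 51.4% of cases in 72Q against 25Q, and in 60.7% with upper-quartile factors and 69.7% with library totals, where the median of all genes moved from 0.03 to 0.163. The share went from 48.5 to 65.3% with shRNA 2 and from 51.3 to 36.5% between the shRNAs with library totals. The cause of these shifts was not tested. Htr1f and Htr3a, at 34 to 117 summed counts per group, are limited by depth. The same limit holds for Htr1d in 25Q and 72Q control (106 and 101 summed counts) and for Htr4 in 25Q control (109).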
